A study of Homo sapiens with 8 samples.

Results

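CD44 and the enzymes that make and break down hyaluronan were described on single-colour Illumina bead arrays of SUM159 trailblazer cells. The rule took every probe whose platform gene symbol was CD44, HAS2, HAS3, HYAL1, HYAL2 or HYAL3, and it found 13 of the 47304 probes on the array, for 5 of these 6 genes (of 20042 genes with a named probe): 3 for CD44, 4 for HAS2, 2 for HAS3, 3 for HYAL2, 1 for HYAL3 and 0 for HYAL1. Trailblazer cells are an invasive subpopulation of SUM159, a human triple-negative breast cancer line, and all groups here are this line. The 4 groups of 2 arrays were cells with the ΔNP63α-V5_pLIX vector and 1 ug/ml doxycycline, cells with that vector and no doxycycline, cells with the empty pLIX vector and 1 ug/ml doxycycline, and cells with the empty vector and no doxycycline, each at 5 days. pLIX is a lentiviral vector whose insert is switched on by doxycycline, and ΔNp63α is the N-terminally truncated form of the transcription factor p63 found in basal epithelium. The labels name no separate transductions or clones, so the vector and any other difference between the 2 lines cannot be told apart. The annotation gave 0 probes for TP63, and induction of the insert was therefore not checked here.

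Hyaluronan is a long unbranched sugar polymer of the extracellular matrix, made at the plasma membrane by the hyaluronan synthases (HAS genes) and cut by hyaluronidases (HYAL genes). CD44 is its main cell surface receptor, is alternatively spliced, and is high on mesenchymal-like breast cancer cells. In squamous carcinoma cells p63 has been reported to regulate CD44 and hyaluronan genes. HYAL3, HYAL1 and HYAL2 lie in 1 cluster on chromosome 3, with NAA80 between HYAL3 and HYAL1.

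Promoter sequences are shown for CD44, the member with a difference that passed the test, and for HYAL2, a measured member with none. They run from 250 bases before to 50 bases after the annotated start and come from RefSeq (GRCh38.p14), at chr11:35138921-35139220 on the plus strand for CD44 and chr3:50322696-50322995 on the minus strand for HYAL2, each written 5′ to 3′. Capitals mark the central letters of the p53-family half-site: the core CATG, the variant core CTAG, and a further variant, CAAG, which on the opposite strand reads CTTG. The first pair are their own reverse complements, so both strands were covered.
CD44: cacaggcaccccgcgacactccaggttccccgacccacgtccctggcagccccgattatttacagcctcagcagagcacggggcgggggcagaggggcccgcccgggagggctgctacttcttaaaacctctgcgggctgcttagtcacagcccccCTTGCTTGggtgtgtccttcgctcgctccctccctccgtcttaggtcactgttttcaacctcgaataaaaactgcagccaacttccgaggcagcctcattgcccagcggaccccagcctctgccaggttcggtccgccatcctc
HYAL2: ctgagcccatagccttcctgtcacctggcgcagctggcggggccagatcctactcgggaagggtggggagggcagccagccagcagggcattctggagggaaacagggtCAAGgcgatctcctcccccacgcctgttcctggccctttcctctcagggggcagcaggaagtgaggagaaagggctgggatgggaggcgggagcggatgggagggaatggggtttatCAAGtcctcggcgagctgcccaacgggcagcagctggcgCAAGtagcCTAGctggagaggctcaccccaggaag

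The CD44 window held 2 cores, both CTTG and side by side, and the HYAL2 window held 4 cores, 3 of them CAAG and 1 CTAG. At least 1 core occurred in 95.4% of the 35116 promoters of the table, with a median of 4 per promoter. A pair of cores 6 bases apart, the spacing of a full site, occurred in 4.79% of all promoters and in 0 of those of CD44, HAS3, HYAL1, HYAL2 and HYAL3. The promoter of HAS2 was left out of this search. These counts describe letters in a short window and no binding was measured. The GC content was 63.3% in the CD44 window and 65.0% in the HYAL2 window, against a median of 58.7% over all promoters.

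Probe intensities are given as deposited, on a linear scale, with a background level of 114.3 estimated from the bulk of dim probes. A probe was kept for testing if it exceeded that level on both arrays of at least 1 group. Of the 13 member probes 5 were kept: 2 of CD44 and 1 each of HAS2, HYAL2 and HYAL3. The level of a probe depends on its own hybridisation, so levels are compared between groups and not between probes.

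CD44 was far above background in every group. Probe ILMN_1803429, which the annotation pairs with the transcript of standard CD44 (NM_001001391), read 3872.0 and 4277.6 in ΔNp63α cells with doxycycline, 3483.7 and 3521.8 in ΔNp63α cells without it, 4756.3 and 4870.1 in empty-vector cells with doxycycline and 4883.1 and 4284.0 in empty-vector cells without it (replicates 1 and 2). All 4 arrays of the ΔNp63α line were below all 4 of the empty-vector line, although the nearest pair, 4277.6 and 4284.0, was almost level. Probe ILMN_2348788, paired with NM_001001392, read 585.4 and 450.9 in ΔNp63α cells with doxycycline, 515.3 and 460.9 in ΔNp63α cells without it, 726.2 and 731.5 in empty-vector cells with doxycycline and 597.0 and 579.4 in empty-vector cells without it. Here the lines overlapped, since 585.4 in replicate 1 of the ΔNp63α cells with doxycycline was above 579.4. The remaining probe, ILMN_1778625, is paired with NM_000610, the form that carries the variable exons, and read 104.5 to 116.7 over the 8 arrays, with 1 array above background. The annotation used here does not give the exons each probe binds, so the probes are not read as measures of separate isoforms.

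The hyaluronan synthases were at background. HAS2, the synthase most often linked to mesenchymal cells, was represented by 4 probes. It read 96.8 to 115 on ILMN_1700935, 100.7 to 116.7 on ILMN_1792978 and 99.9 to 110.9 on ILMN_2243036, 3 probes that were not kept. Its kept probe, ILMN_1777562, read 120.5 and 114.3 in ΔNp63α cells with doxycycline, 117.1 and 117.8 in ΔNp63α cells without it, 112.3 and 114.8 in empty-vector cells with doxycycline and 117.7 and 110.8 in empty-vector cells without it. It lay above the level on 5 of 8 arrays and was kept only through the ΔNp63α arrays without doxycycline. Its arrays overlapped in every pair of groups that was compared. HAS3, a synthase of epithelial cells, had 2 probes that read 93.5 to 108.3 (ILMN_1668760) and 105.8 to 122.6 (ILMN_1794501), the highest value being replicate 1 of the empty-vector cells with doxycycline. Over the 8 member probes that were not kept, 4 of 64 values exceeded the background level. A change that kept these transcripts below that level was not detectable here.

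The hyaluronidases gave a measured probe for HYAL2 and for HYAL3. HYAL2, a membrane-anchored enzyme that cuts long hyaluronan, read 219.0 and 189.6 (ILMN_1668283) in ΔNp63α cells with doxycycline, 219.0 and 204.2 in ΔNp63α cells without it, 224.0 and 198.8 in empty-vector cells with doxycycline and 190.9 and 194.1 in empty-vector cells without it. Both empty-vector arrays without doxycycline were below the other groups except replicate 2 of the ΔNp63α cells with doxycycline. The other HYAL2 probes, ILMN_1665916 and ILMN_1713840, read 97.6 to 112.2 and 102.8 to 111.1, with 0 arrays above background. HYAL3 (ILMN_1667432), a family member with little known activity of its own, read 220.0 and 222.9 in ΔNp63α cells with doxycycline, 233.0 and 225.2 in ΔNp63α cells without it, 227.9 and 215.4 in empty-vector cells with doxycycline and 234.3 and 231.1 in empty-vector cells without it. Its 8 values spanned 215.4 to 234.3.

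**Figure D1:**
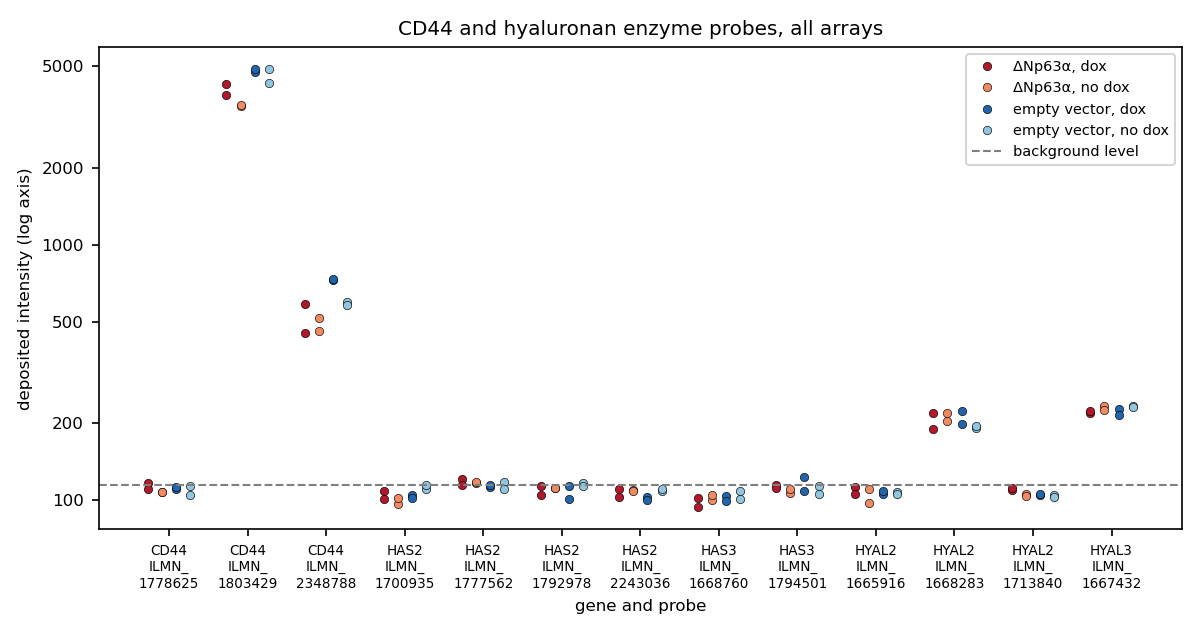
Deposited intensity (log axis) of the 13 member probes on each of the 8 arrays, coloured by group, with the background level of 114.3 as a dashed line. ILMN_1803429 and ILMN_2348788 of CD44, ILMN_1668283 of HYAL2 and ILMN_1667432 of HYAL3 lie above the line on every array. Of the other 9 probes 4 lie below it on all 8 arrays and 5 have values on both sides of it.

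For the tests, intensities were background corrected with an offset of 50 and put on a log2 scale, and limma was fitted to the 23086 kept probes with 1 mean per group, with adjusted p-values (Benjamini-Hochberg) over all of them and a threshold of 0.05. Folds on this scale understate the change of dim probes. Nothing in the labels says that replicates were grown separately, and the p-values therefore cover only array-to-array spread, which may be technical. Spearman correlations over the kept probes were 0.970 to 0.975 between arrays of a group and 0.954 to 0.975 between groups. Of markers of the labelled cell type, 6 of 6 mesenchymal genes (VIM, ZEB1, SPARC, FN1, AXL and CAV1) were kept, while CDH1, EPCAM, CLDN3 and CLDN7 were not above background in any group and CLDN4 was kept. Of other cell types, the leukocyte genes PTPRC and CD3E, all 4 endothelial markers, the luminal genes ESR1, KRT19 and PGR and the basal genes KRT5, DSG3 and TRIM29 were not kept, whereas CD14, ITGB2, FOXA1, GATA3, KRT14 and 3 of 4 fibroblast markers were.

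The main comparison asked what doxycycline did in the ΔNp63α line. None of the 5 kept member probes passed the test (0 of 5), against 1.56% of all kept probes. CD44 probe ILMN_1803429 averaged 11.97 ± 0.10 with doxycycline and 11.76 ± 0.01 without it (mean log2 intensity, SD, n = 2 arrays each), a difference of 0.22 ± 0.10 (SE). Its arrays did not overlap, as was so for 40.7% of all kept probes in either direction. The fold was 1.16, with a 95% interval from 0.992 to 1.37, and the limma adjusted p was 0.471. CD44 probe ILMN_2348788 averaged 8.87 ± 0.29 and 8.79 ± 0.13, a difference of 0.08 ± 0.13 (limma adjusted p = 0.886), and its arrays overlapped. On that probe the sign turned to -0.12 without replicate 1 of the ΔNp63α cells with doxycycline and to -0.01 without replicate 2 of the uninduced cells. In this comparison 3 of 11 kept mesenchymal marker probes (AXL on both and SPARC), 2 of 3 leukocyte probes (both ITGB2) and 1 of 6 fibroblast probes (DCN) fell, and 0 rose.

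The enzymes also did not pass in this comparison. HYAL2 averaged 7.31 ± 0.19 with doxycycline and 7.38 ± 0.09 without it (SD, n = 2 each), a difference of -0.07 with a 95% interval from -0.33 to 0.20 (limma adjusted p = 0.898). HYAL3 averaged 7.47 ± 0.02 and 7.53 ± 0.04, a difference of -0.06 with an interval from -0.27 to 0.15 (limma adjusted p = 0.882). The HYAL3 arrays did not overlap, as was so for 40.7% of all kept probes in either direction, and those of HYAL2 did. The HAS2 probe had a difference of -0.00 with an interval from -0.22 to 0.22 (limma adjusted p = 0.997). That probe lay near background, above the level on 5 of 8 arrays. Its differences, here and in the other comparisons, therefore cannot show whether HAS2 changed. In fold terms the intervals reached from 0.793 to 1.15 for HYAL2 and from 0.829 to 1.11 for HYAL3. A fold of 2 on this scale lay outside both. The scale understates changes of dim probes such as these, and the intervals cover only array-to-array spread.

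In empty-vector cells, which show doxycycline without the insert, 0 of the 5 member probes passed, as did 0% of all kept probes (smallest adjusted p 0.986, with 1020 probes at an unadjusted p under 0.05). The dimmer CD44 probe ILMN_2348788 had the largest difference among the members, 0.33 ± 0.13 (SE), from averages of 9.42 ± 0.01 with doxycycline and 9.09 ± 0.03 without it (SD, n = 2 each). Its arrays did not overlap, which held for 34.8% of kept probes, and its limma adjusted p was 0.986 (unadjusted p = 0.0293). The brighter CD44 probe differed by 0.07 ± 0.10, HYAL2 by 0.17 ± 0.12, HYAL3 by -0.09 ± 0.10 and HAS2 by -0.01 ± 0.10. The arrays of HYAL2 and of HYAL3 also did not overlap. The interaction, which sets the doxycycline response of ΔNp63α cells against that of empty-vector cells, passed for 0 of 5 member probes against 0.347% of all kept probes. It was 0.14 ± 0.15 and -0.25 ± 0.19 on the CD44 probes (limma adjusted p = 0.905 and 0.851) and -0.24 ± 0.17 on HYAL2 (limma adjusted p = 0.841).

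**Figure D2:**
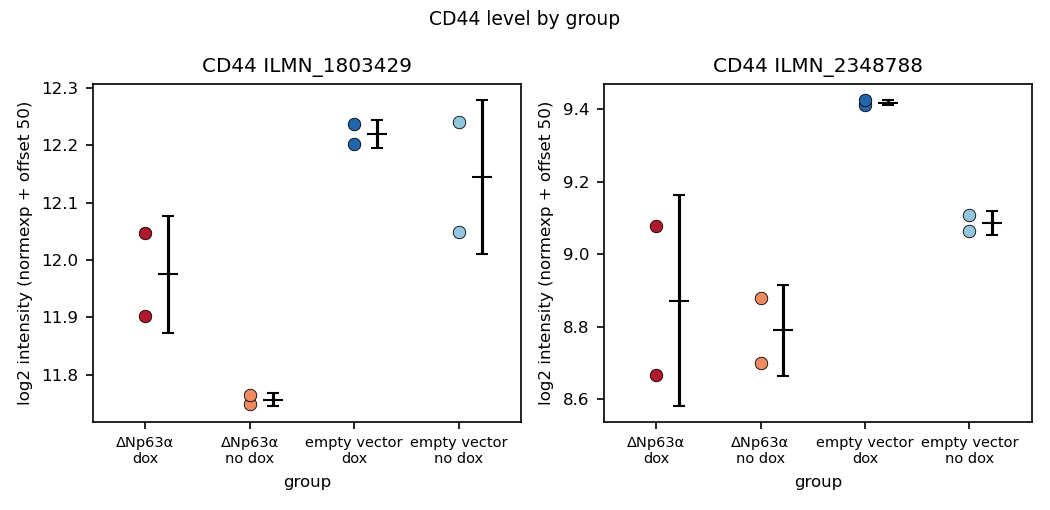
Log2 intensity of the CD44 probes ILMN_1803429 (left) and ILMN_2348788 (right) on each array by group, with the mean and SD (n = 2) beside the points. The ΔNp63α groups average 11.97 and 11.76 on the left, below the empty-vector groups at 12.22 and 12.15, and 8.87 and 8.79 on the right, below 9.42 and 9.09.

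CD44 averaged lower in ΔNp63α cells than in empty-vector cells, with and without doxycycline, and 1 probe passed the test with it. With doxycycline in both lines, ILMN_2348788 averaged 8.87 ± 0.29 in ΔNp63α cells and 9.42 ± 0.01 in empty-vector cells (SD, n = 2 each), a difference of -0.55 ± 0.13 (SE) or 1.46-fold lower (limma adjusted p = 0.0359). That was the 1 of 5 member probes that passed, against 6.02% of all kept probes (3.16% lower). ILMN_1803429 averaged 11.97 ± 0.10 and 12.22 ± 0.02, a difference of -0.24 ± 0.10 that did not pass (limma adjusted p = 0.221). On both probes the ΔNp63α arrays were below the empty-vector arrays, which held for 24.0% of all kept probes. The call on ILMN_2348788 was lost without replicate 2 of the ΔNp63α cells with doxycycline (-0.34, limma adjusted p = 0.239), without either empty-vector array with doxycycline (-0.55 and -0.54) or, at an unchanged -0.55, without either empty-vector array with no doxycycline. It was also lost with no background correction (-0.50, limma adjusted p = 0.0531), with an offset of 16 (-0.58, 0.0639) and with only the arrays compared (-0.55, 0.0914).

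Several markers of the mesenchymal state were lower in the same comparison. With doxycycline in both lines 6 of 11 kept mesenchymal probes were lower in ΔNp63α cells and 0 higher, against 3.16% of all kept probes lower. They were probes of SPARC (-0.75), FN1 (-0.77), CAV1 (-0.67 and -0.64), AXL (-0.54) and VIM (-0.40). The remaining probes of FN1, AXL and VIM and the ZEB1 probe did not pass (limma adjusted p 0.0707 or more). The intensities of the 11 probes summed to 33113.6 to 33667 in ΔNp63α cells with doxycycline, 36239.8 to 38969 in ΔNp63α cells without it, 43224.2 to 47880.5 in empty-vector cells with doxycycline and 42698.6 to 43154.6 in empty-vector cells without it. These sums were lower on all 4 ΔNp63α arrays than on any empty-vector array, as the brighter CD44 probe was. Among single kept probes that held for 5.34%. That share is no reference for a sum of 11 probes, in which the brightest weigh most. Of leukocyte probes 1 of 3 (ITGB2, -0.50) and of fibroblast probes 2 of 6 (COL1A1, -1.38, and DCN, -0.52) were also lower. The kept probes of CLDN4, FOXA1, GATA3 and KRT14 did not pass in this comparison (limma adjusted p 0.1205 or more). With doxycycline the 9 leukocyte probes summed to 1115.8 to 1133.5 in ΔNp63α cells and 1197.5 to 1202.2 in empty-vector cells. The 9 fibroblast probes summed to 1911.8 to 2641.5 and 3176.3 to 3286.8. Without doxycycline the leukocyte sums were higher in ΔNp63α cells, 1306.5 to 1338.5 against 1251.1 to 1279.5. The fibroblast sums then overlapped, 2399.8 to 3393.7 against 3134.9 to 3303.9. The part of these markers in the CD44 difference was not tested.

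The lines were also compared after the same 5 days with no doxycycline. None of the 5 member probes passed (0 of 5), against 0.026% of all kept probes. ILMN_1803429 averaged 11.76 ± 0.01 in ΔNp63α cells and 12.15 ± 0.13 in empty-vector cells, a difference of -0.39 ± 0.10 (unadjusted p = 0.00345, limma adjusted p = 0.323). ILMN_2348788 averaged 8.79 ± 0.13 and 9.09 ± 0.03, a difference of -0.30 ± 0.13 (limma adjusted p = 0.556). Both sets of arrays were lower without overlap, as were 19.5% of all kept probes. HYAL2 differed by 0.17 ± 0.12 without doxycycline and by -0.06 ± 0.12 with doxycycline in both lines, and HYAL3 by -0.03 ± 0.10 and by -0.00 ± 0.10, where the limma adjusted p was 0.709 or more. Without doxycycline the HYAL2 arrays were higher without overlap. Non-overlap in either direction held for 41.0% of all kept probes there.

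The lines were also compared with the doxycycline levels averaged, a comparison chosen after the values were seen. Both CD44 probes passed, 2 of the 5 member probes, against 6.43% of all kept probes (3.36% lower). ILMN_1803429 differed by -0.32 ± 0.07 (SE) or 1.25-fold lower in the ΔNp63α line (limma adjusted p = 0.0298), and ILMN_2348788 by -0.42 ± 0.09 or 1.34-fold lower (limma adjusted p = 0.0241). Over 4 arrays against 4, ILMN_1803429 averaged 11.87 ± 0.14 in the ΔNp63α line and 12.18 ± 0.09 in the empty-vector line (SD). ILMN_2348788 averaged 8.83 ± 0.19 and 9.25 ± 0.19. Shuffling all 8 arrays, without keeping the doxycycline groups apart, gave two-sided exact permutation p = 0.0286 and 0.0571. The former is the smallest value that such a shuffle allows. Because the separation had been seen beforehand, these p-values describe it and do not test it independently. A lower reading on all 4 arrays, as ILMN_1803429 had, was found for 5.34% of all kept probes. HAS2, HYAL2 and HYAL3 differed by 0.07 ± 0.07, 0.05 ± 0.09 and -0.01 ± 0.07 in this comparison and did not pass (limma adjusted p = 0.617, 0.769 and 0.930). Of the mesenchymal probes 4 of 11 (CAV1 on both, VIM and SPARC) and of the fibroblast probes 1 of 6 (DCN) were lower here, and 0 were higher. Leaving out single arrays ended the call of ILMN_1803429 in 6 of 8 cases (limma adjusted p 0.0461 to 0.124 over the 8) and that of ILMN_2348788 in 5 of 8 (0.00589 to 0.0963), at differences from -0.36 to -0.27 and from -0.52 to -0.32.

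The CD44 probes were set against each other within each array as a log2 difference of ILMN_2348788 minus ILMN_1803429. It read -2.82 and -3.38 in ΔNp63α cells with doxycycline, -2.87 and -3.06 in ΔNp63α cells without it, -2.79 and -2.81 in empty-vector cells with doxycycline and -3.13 and -2.99 in empty-vector cells without it. The lines averaged -3.03 ± 0.25 and -2.93 ± 0.16 (SD, n = 4 arrays each), a difference of -0.10 (two-sided exact permutation p = 0.514). That shuffle pooled the doxycycline levels, so its spread includes differences between them. The ΔNp63α line averaged lower than the empty-vector line with doxycycline and higher without it, and these opposite differences partly cancel in the average. Replicate 2 of the ΔNp63α cells with doxycycline had the lowest value. The empty-vector arrays with doxycycline were above the other 6, by as little as -2.81 against -2.82, and the other 3 groups overlapped.

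**Figure D3:**
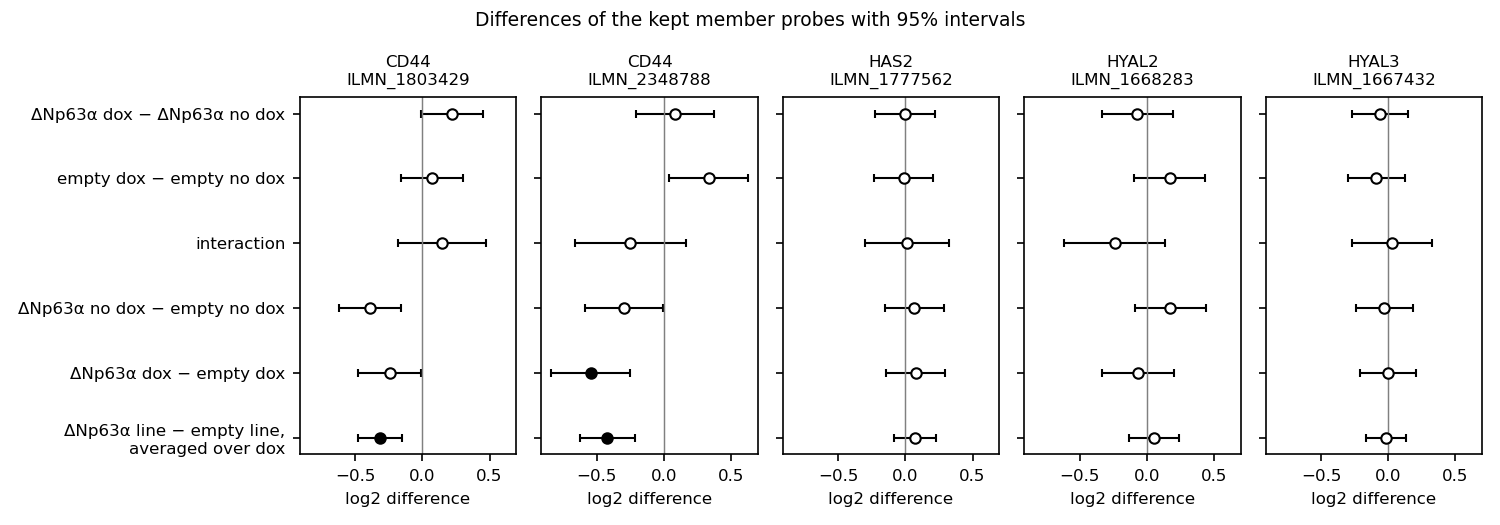
Log2 differences of the 5 kept member probes in the 5 comparisons of the design and with the lines averaged over doxycycline, with 95% intervals from limma. Filled points passed at an adjusted p under 0.05: ILMN_2348788 at -0.55 with doxycycline in both lines, and both CD44 probes at -0.32 and -0.42 with the lines averaged.

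Genes with a pattern like a member's were to be named where the 4 group means of its brightest kept probe spanned at least 0.5 on the log2 scale, and by that rule no member qualified. The spans were 0.46 for CD44, 0.17 for HYAL2, 0.09 for HYAL3 and 0.08 for HAS2. The dimmer CD44 probe, ILMN_2348788, spanned 0.63, but the rule used the brightest probe of a gene and no search was made for the dimmer one. With the minimum lowered to 0.4 after the values were seen, the 3 genes with the highest Pearson r to CD44 ILMN_1803429 over the 8 arrays, out of 2130, were ANXA2 (0.974), a calcium-dependent membrane-binding annexin, PSPC1 (0.962), a paraspeckle protein, and RPL4 (0.935), a ribosomal protein. ANXA2 (ILMN_2409167) averaged 13.74 and 13.46 in ΔNp63α cells with and without doxycycline, and 14.04 and 13.91 in empty-vector cells with and without it. These are the highest values of a search over many probes on 8 arrays that share 4 groups, and they carry no test.

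A list of 70 other genes of hyaluronan and CD44 biology was followed through the same fit. Of these, 65 had a named probe and 43 had a kept probe, 67 kept probes in all. With doxycycline in the ΔNp63α line 0 of the 67 rose and 1 fell (1.49%, against 1.56% of all kept probes), and the median difference was -0.03, against -0.00 over all kept probes. With doxycycline in both lines, 1 was higher and 3 were lower in ΔNp63α cells than in empty-vector cells (5.97%, against 6.02%), with a median of -0.06 against 0.00. With doxycycline alone and between the uninduced lines 0 of 67 passed, against 0% and 0.026% of all kept probes, and for the interaction 0 of 67 against 0.347%.

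Among genes of synthesis and breakdown, 4 probes were kept. CEMIP2, a cell surface protein reported to break down hyaluronan, read 7.06 and 7.18 (ILMN_1784661, log2 intensity) in ΔNp63α cells with doxycycline and 6.61 and 6.44 in empty-vector cells with doxycycline. The arrays did not overlap, as was so for 49.0% of all kept probes in either direction. The difference was 0.59 ± 0.10 (SE), 1.51-fold higher in ΔNp63α cells (limma adjusted p = 0.00866). Without doxycycline it read 7.07 and 7.04 in ΔNp63α cells and 6.74 and 6.67 in empty-vector cells, a difference of 0.35 ± 0.10 that did not pass (limma adjusted p = 0.342), and the doxycycline difference in the ΔNp63α line was 0.06 ± 0.10. The call was lost without replicate 2 of the ΔNp63α cells with doxycycline (0.53) or of the empty-vector cells with doxycycline (0.51). CEMIP, a secreted hyaluronan-binding protein needed for its breakdown in fibroblasts, was above background on 0 of 4 ΔNp63α arrays, 1 empty-vector array with doxycycline and 2 without it, and no difference is given for it. The lysosomal glucuronidase GUSB differed by 0.05 ± 0.13 and the hexosaminidase subunit HEXA by 0.14 ± 0.11 between the lines with doxycycline, and neither passed.

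Precursor sugar genes had 13 kept probes, of which 0 passed in any of the 5 comparisons. UAP1, which makes UDP-N-acetylglucosamine, averaged 10.42 ± 0.25 in ΔNp63α cells with doxycycline and 10.76 ± 0.29 without it (SD, n = 2 each), a difference of -0.34 ± 0.15 (limma adjusted p = 0.412). UGDH, which makes the glucuronic acid precursor, differed by -0.17 ± 0.12 in that comparison. Other hyaluronan receptors gave 5 kept probes and 0 calls, and the motility receptor HMMR differed by 0.07 ± 0.13 and 0.06 ± 0.15 on its probes for doxycycline in the ΔNp63α line. Of the 9 kept probes of hyaluronan-binding matrix and soluble proteins 0 passed, and the large proteoglycan VCAN (versican) differed by -0.15 ± 0.14 there.

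The proteins that bind the CD44 tail had 10 kept probes. ANK3, ankyrin-G, which links membrane proteins to the spectrin skeleton, read 6.69 and 6.60 (ILMN_1661875) in ΔNp63α cells with doxycycline and 7.14 and 7.24 in empty-vector cells with doxycycline, a difference of -0.54 ± 0.12 (limma adjusted p = 0.0224). A further ANK3 probe, ILMN_2390609, differed by -0.36 ± 0.10 (limma adjusted p = 0.0743), and ILMN_1651943, near background, by 0.04 ± 0.14. The call was lost without replicate 2 of either group (-0.50 and -0.49). Moesin (MSN) averaged 10.46 ± 0.18 in ΔNp63α cells with doxycycline and 10.12 ± 0.24 without it, a difference of 0.33 ± 0.14 (limma adjusted p = 0.397), and ezrin (EZR) differed by -0.13 ± 0.09 and -0.03 ± 0.10 on its probes there.

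Genes of CD44 shedding had 8 kept probes and 0 calls, with the sheddase ADAM10 at 0.07 ± 0.14 and 0.08 ± 0.12 for doxycycline in the ΔNp63α line. Factors reported to act on CD44 exon choice had 12 kept probes, and the 1 fall of the list with doxycycline in the ΔNp63α line was among them. SRSF1, a splicing factor, read 11.70 and 11.73 (ILMN_1795341) in ΔNp63α cells with doxycycline and 12.18 and 12.11 without it, a difference of -0.43 ± 0.09 or 1.35-fold lower (limma adjusted p = 0.0494). In the empty-vector line it read 11.69 and 11.73 with doxycycline and 11.95 and 11.92 without it, a difference of -0.23 ± 0.09 in the same direction, and the interaction was -0.20 ± 0.13 (limma adjusted p = 0.812). The SRSF1 call was lost on leaving out any of the 8 arrays in turn (adjusted p 0.0642 to 0.270, differences from -0.47 to -0.40). TRA2B (-0.38 ± 0.14) and U2AF2 (-0.35 ± 0.11 on ILMN_2385173 and -0.32 ± 0.12 on ILMN_1768930) did not pass (limma adjusted p = 0.287, 0.181 and 0.322).

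The other ligands and partners of CD44 had 6 kept probes, 2 of which were lower in ΔNp63α cells with doxycycline in both lines, against 3.16% of all kept probes lower. HBEGF, an EGF-family growth factor that heparan sulphate forms of CD44 can bind, had intensities of 626.5 and 620.6 (ILMN_2121408) in ΔNp63α cells with doxycycline, 755.0 and 824.0 in ΔNp63α cells without it, 1107.2 and 1166.5 in empty-vector cells with doxycycline and 1034.8 and 1070.4 in empty-vector cells without it. Every ΔNp63α array was below every empty-vector array, as was so for 5.34% of all kept probes. With doxycycline the lines differed by -0.92 ± 0.10 (SE), 1.89-fold lower in ΔNp63α cells (limma adjusted p = 6.174e-04), and this call held in all 17 alternative settings run (adjusted p 1.461e-04 to 0.00808). Doxycycline in the ΔNp63α line gave -0.36 ± 0.10, which did not pass (limma adjusted p = 0.126), and the uninduced lines differed by -0.44 ± 0.10 (limma adjusted p = 0.220). FGF2, a heparin-binding growth factor, read 8.79 and 8.58 (ILMN_2105919) in ΔNp63α cells with doxycycline and 9.61 and 9.29 in empty-vector cells with doxycycline, a difference of -0.76 ± 0.15 (limma adjusted p = 0.0138).

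That FGF2 call was lost without replicate 2 of the ΔNp63α cells with doxycycline (-0.66) or replicate 1 of the empty-vector cells with doxycycline (-0.60), and a dimmer FGF2 probe, ILMN_1744693, differed by -0.42 ± 0.15 (limma adjusted p = 0.141). Doxycycline in the ΔNp63α line gave -0.46 ± 0.15 for FGF2 ILMN_2105919 (limma adjusted p = 0.214). The proteoglycan SRGN, serglycin, differed by 0.34 ± 0.17 and 0.21 ± 0.27 on its probes in that comparison, and the receptor MET, for which CD44 is a co-receptor, by 0.24 ± 0.11 (limma adjusted p = 0.483, 0.839 and 0.453). With the lines averaged over doxycycline, 1 list probe was higher (CEMIP2) and 5 were lower in the ΔNp63α line (8.96%, against 6.43% of all kept probes). The lower ones were HBEGF (-0.68), FGF2 (-0.59), UAP1 (-0.40), PCBP1 (-0.38) and ANK3 (-0.31), and PCBP1, an RNA-binding protein of the exon choice group, was named after its value was seen. Leaving out single arrays ended the calls of PCBP1 in 5 of 8 cases, UAP1 in 6, ANK3 in 7, FGF2 in 1 and CEMIP2 and HBEGF in 0.

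**Figure D4:**
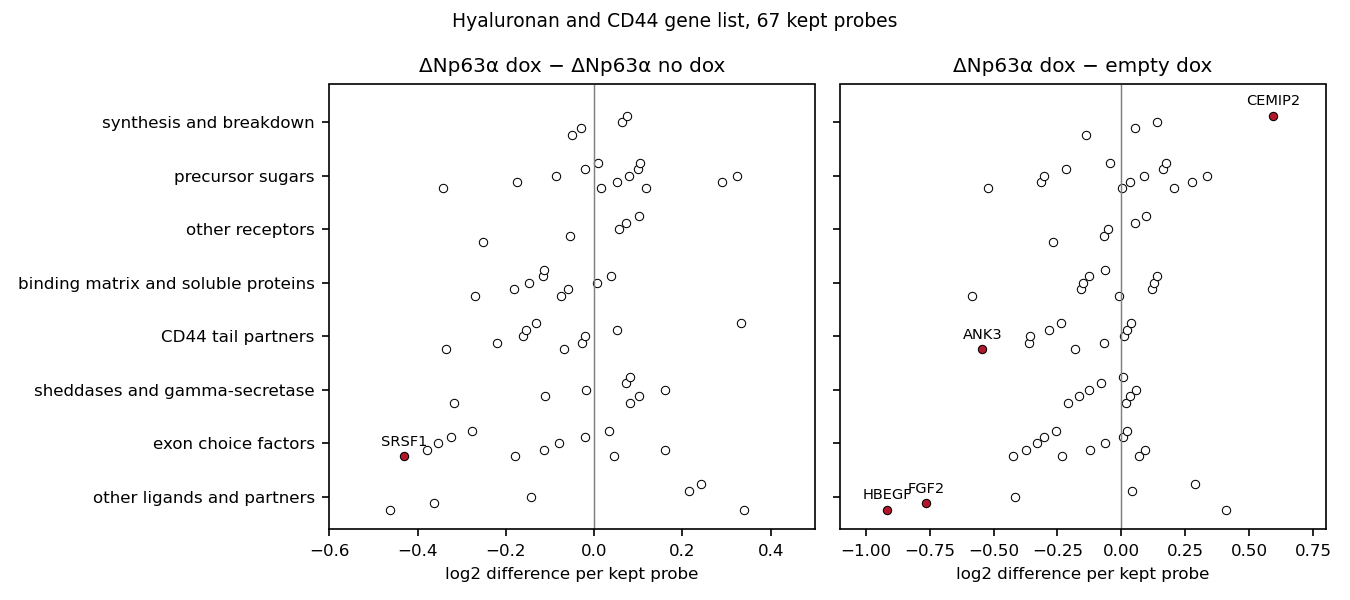
Log2 differences of the 67 kept probes of the hyaluronan and CD44 gene list, by role, for doxycycline in the ΔNp63α line (left) and for the lines with doxycycline (right). Points are probes and filled points passed at an adjusted p under 0.05: SRSF1 at -0.43 on the left, and CEMIP2 at 0.59, ANK3 at -0.54, FGF2 at -0.76 and HBEGF at -0.92 on the right.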

How the data were processed

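The values used were probe intensities that the authors deposited for 8 Illumina arrays of biotin-labelled cRNA, per the labels. Which software and normalisation made them is not given in the sources used here. The arrays shared 1 distribution (median 113.5, no sorted value over 0.175 from the mean array), with no background subtracted. A further deposited table was not used because its 16 columns of per-sample values match no sample label. Probe symbols came from the platform annotation (30105 probes with 1 symbol, 8 with several, 17191 not listed). normexp with an offset of 50 was applied in limma 3.58.1 (R 4.3.3), then log2. The background level of 114.3 is the mode, 106.9, plus 1.645 times a mirrored SD of 4.52, and 23086 probes were kept. limma used 4 residual and 7.00 prior degrees of freedom over all 8 arrays, in 5 comparisons. The fit was also run on simulated data with independent noise on each array. That run cannot show how the p-values behave where arrays deviate together. With 2 arrays a group, precision is limited by their number.

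The members and lists were chosen with earlier results of these data known. Of the 70 list genes, those with a call in any of the 5 comparisons and the 6 further probes with the largest differences with doxycycline in the ΔNp63α line were to be named, and others were added to show each role. Promoters are RefSeq's (GRCh38.p14). The member search covered 5 of the 6 members and left out HAS2. Alternatives covered background correction, normalisation, filtering, 1 probe per gene, arrays fitted, robust eBayes, the replicate block and leaving out each array. The comparison averaged over doxycycline, the CD44 probe difference and the promoter search were added after seeing the data. The slide of each sample was not known, so a slide block was not run.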

Additional observations from a re-analysis of the deposited data

How the results depend on the processing

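No setting turned the direction of a member value that had passed. Of 488 recomputed member values 445 kept direction and side of the threshold, 23 turned sign, all of them uncalled values on leaving out an array, and 20 lost their call. Causes were not tested. With no background correction 230 probes passed for doxycycline in the ΔNp63α line (359 as reported), 53 for the interaction (80) and 0 between the uninduced lines (6), and CD44 ILMN_2348788 differed by -0.50 between the lines with doxycycline (limma adjusted p = 0.0531). With an offset of 16 these were 15 between the uninduced lines, -0.58 for that CD44 probe and, averaged over doxycycline, -0.32 for ILMN_1803429 (limma adjusted p = 0.0926). The 1 list call for doxycycline in the ΔNp63α line was 0 with that offset, with cyclic loess, with probes above background on all arrays and with only the arrays compared. With no filter 28 probes passed between the uninduced lines. With the brightest probe per gene 7 list probes passed between the lines with doxycycline (4 as reported). With only the arrays compared the counts were 201 for doxycycline in the ΔNp63α line, 25 between the uninduced lines and 669 between the lines with doxycycline (1390), where CD44 ILMN_2348788 was at -0.55 (limma adjusted p = 0.0914).

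Replicate numbers were not taken to pair the arrays, because not every pair of groups passed a cut of 0.1. Deviations of same-numbered arrays correlated positively in all 6 pairs of groups (0.0387 to 0.421), and above 0.1 in 4 of them. A replicate block gave 602 probes for doxycycline in the ΔNp63α line, 167 for the interaction, 47 between the uninduced lines, 2204 between the lines with doxycycline (9 of the list) and 2391 averaged over doxycycline (1485), and it changed no CD44 call.

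On leaving out each array, counts ranged from 125 to 357 for doxycycline in the ΔNp63α line (0 of the list), 27 to 80 for the interaction, 0 to 10 between the uninduced lines, 396 to 1272 between the lines with doxycycline (1 to 6 of the list) and 479 to 1525 averaged over doxycycline (2 to 8 of the list). CD44 ILMN_2348788 ranged from -0.75 to -0.34 between the lines with doxycycline, -0.52 to -0.32 averaged over it and -0.12 to 0.29 for doxycycline in the ΔNp63α line, where it turned to -0.12 and -0.01. CD44 ILMN_1803429 ranged from -0.36 to -0.27 averaged over doxycycline and from -0.0211 to 0.17 for doxycycline in the empty-vector line. The uncalled HAS2 probe ranged from -0.064 to 0.058 for doxycycline in the ΔNp63α line, -0.085 to 0.058 in the empty-vector line, -0.061 to 0.082 for the interaction and -0.0055 to 0.138 between the uninduced lines. HYAL2 ranged from -0.202 to 0.064 for doxycycline in the ΔNp63α line, -0.198 to 0.068 between the lines with doxycycline and -0.012 to 0.121 averaged over it. HYAL3 ranged from -0.023 to 0.078 for the interaction, -0.059 to 0.0022 between the uninduced lines, -0.052 to 0.050 between the lines with doxycycline and -0.040 to 0.011 averaged over it. The stricter filter left out the HAS2 probe, and the brightest probe per gene left out CD44 ILMN_2348788.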
